A study of Macaca mulatta with 24 samples.

Results

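The 10 genes described here (PECAM1, CDH5, CLDN5, ESAM, EMCN, VWF, KDR, TEK, TIE1 and ERG) are genes by which vascular endothelial cells are commonly recognised. They were chosen by name from a table of raw read counts for 32386 macaque genes, each through its Ensembl identifier: 9 through a gene name table and CLDN5 (ENSMMUG00000044567) through the identifiers printed with the study's supplementary lists. All 10 matched 1 identifier each, and all 10 were among the 15207 genes that passed the filter on low counts.

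RNA was taken from omental (visceral) white adipose tissue of 24 female rhesus macaques, 6 in each of 4 groups, after 3 years of treatment. Controls (C) carried cholesterol implants and ate monkey chow, the T group carried testosterone-releasing implants and ate chow, the WSD group carried control cholesterol implants and ate a high-fat Western-style diet, and the T + WSD group received testosterone and that diet together. The labels give every animal an age of 4 years, whereas the study's methods put the biopsies at an older, post-pubertal age. The animals were picked from larger groups because they reflected the metabolic findings of those groups, so they are not a random draw from them.

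Endothelial cells line every blood vessel as a sheet held together by VE-cadherin (CDH5) at adherens junctions and by claudin-5 (CLDN5) and ESAM at tight junctions, with PECAM1 at the same contacts. KDR is the main receptor for VEGF-A, and TEK and TIE1 form the receptor pair of the angiopoietin pathway that keeps vessels quiescent and sealed. ERG is a transcription factor that maintains the endothelial programme, VWF is a clotting glycoprotein stored in endothelial granules, and endomucin (EMCN) is a sialomucin of the capillary and venous surface. In fat, capillaries deliver fatty acids to adipocytes and must grow when the tissue expands.

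Libraries held 6899185 to 28270776 counts (median 20630512.5). Levels are given as counts per 1000000 counts (CPM) of the TMM-normalized library size. They compare animals for 1 gene, and are not comparable between genes because transcript lengths were not used. Adipocyte genes were abundant in every library, with at least 381 CPM of ADIPOQ and at least 315 CPM of PLIN1. In 8 libraries, 2 of each group, a single gene (ENSMMUG00000038258) took 9.92 to 54.7% of the counts, against 0.879 to 2.51% in the other 16. These 8 are called the library batch below. It is a division seen in the counts and not one given by the labels.

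C replicate 1 stood apart from the other 23 libraries. Its summed level of 10 mesothelial genes was 38894 CPM, against 235 to 17571 CPM elsewhere, and its sum of 10 adipocyte genes was 3578 CPM, against 13832 to 36091 CPM elsewhere. The same library had the lowest level of 7 of the 10 endothelial genes among all 24 animals and the highest level of 2 of the receptors, KDR and TEK. The calls of the 10 genes in T + WSD against C and the contrasts of KDR and TEK are therefore given with and without it. Other results include this animal unless stated.

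In T + WSD animals, 6 of the 10 endothelial genes were higher than in controls: PECAM1, VWF, ESAM, CDH5, CLDN5 and TIE1, by 1.54-fold to 1.96-fold. ERG, EMCN, TEK and KDR did not pass the test. A gene was called when the edgeR quasi-likelihood test, adjusted over all tested genes by the Benjamini-Hochberg method, gave an adjusted p under 0.05 together with a change over 1.5-fold. Over all tested genes, 4.72% were called higher and 5.29% lower by this rule. The median log2 fold change of the 10 genes was 0.67, beside −0.04 for all tested genes. DESeq2 called the same 6. As the tissue was sequenced in bulk, a different number of endothelial cells and a different amount of RNA per cell cannot be told apart.

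**Figure D1:**
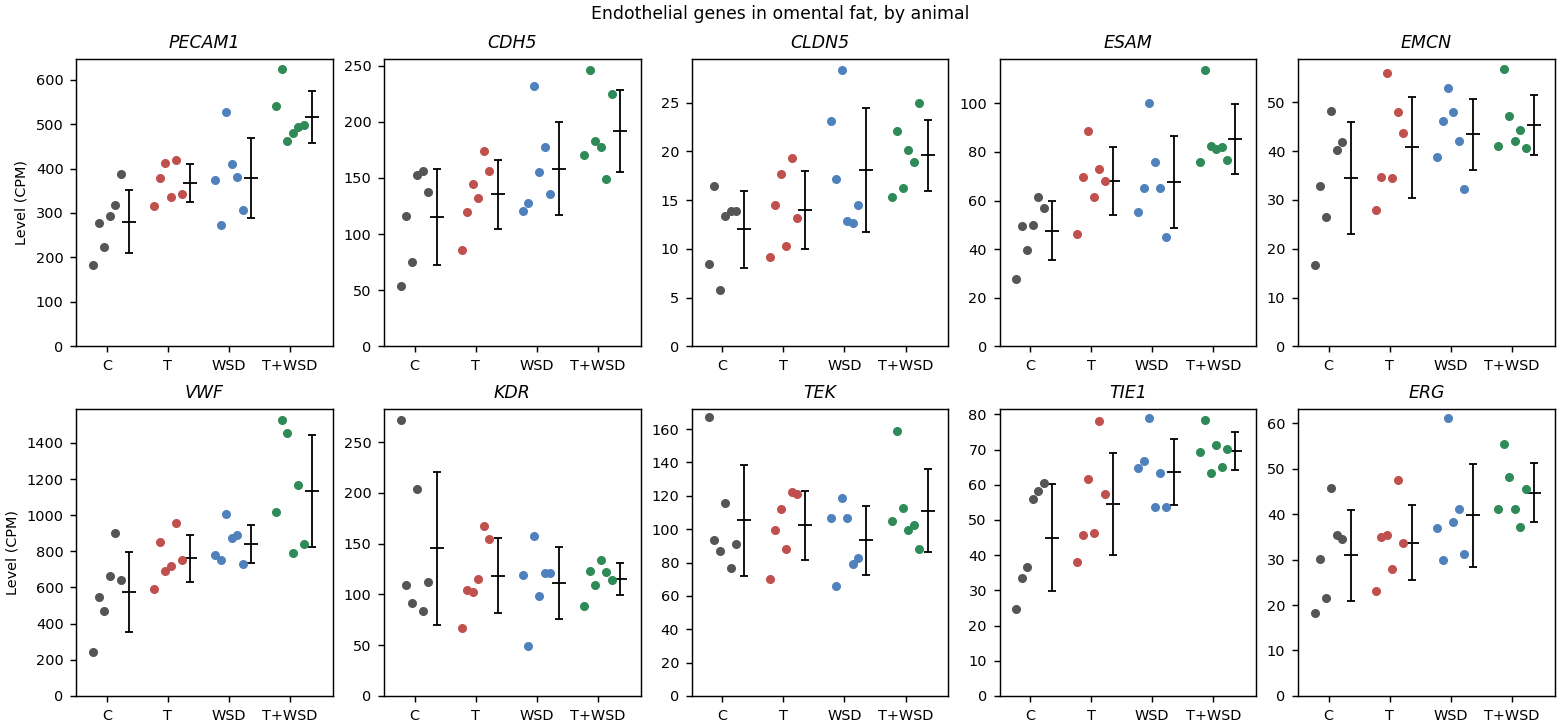
Level (CPM, vertical axis) of each of the 10 endothelial genes in the 24 animals by group, with 1 point per animal and the mean ± SD of the 6 animals beside the points. All T + WSD animals lie above all controls for PECAM1, ESAM and TIE1, whereas for KDR and TEK the highest point is C replicate 1.

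PECAM1, a homophilic adhesion molecule of the cell contacts, ranged from 183 to 387 CPM in controls (median 285) and from 462 to 624 CPM in T + WSD animals (median 496). Every T + WSD animal lay above every control, as was so for 3.49% of all tested genes. The group means were 281 ± 71.6 and 516 ± 59.0 CPM (SD, n = 6 each), and the fold change was 1.84 (95% confidence interval 1.46 to 2.31, edgeR adjusted p = 0.00294). CDH5 ranged from 53.4 to 156 CPM in controls (median 127) and from 149 to 246 CPM in T + WSD animals (median 180). The ranges met only at their ends, with 5 of 6 treated animals above all controls. CDH5 rose 1.66-fold (1.20 to 2.30, edgeR adjusted p = 0.0306).

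ESAM, an immunoglobulin-type adhesion molecule of the tight junction, ranged from 27.7 to 61.3 CPM in controls (median 49.8) and from 75.9 to 114 CPM in T + WSD animals (median 81.5). The groups did not overlap, and ESAM rose 1.79-fold (1.36 to 2.35, edgeR adjusted p = 0.00704). CLDN5 had the lowest counts of the 10 (78 to 696 per library). It ranged from 5.81 to 16.4 CPM in controls (median 13.7) and from 15.3 to 24.95 CPM in T + WSD animals (median 19.5), and 4 of 6 treated animals lay above all controls. Its rise of 1.64-fold (1.16 to 2.33) was the one nearest to the threshold on adjusted p (edgeR adjusted p = 0.0468).

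VWF ranged from 241 to 903 CPM in controls (median 594) and from 788 to 1525 CPM in T + WSD animals (median 1093). It had the largest fold change of the 10, 1.96 (1.43 to 2.70, edgeR adjusted p = 0.00740), although 2 of the 6 treated animals lay within the control range. Of the T + WSD animals, 4 had at least 1018 CPM and the other 2 had 788 and 840 CPM, and their SD was 309 CPM. EMCN ranged from 16.8 to 48.2 CPM in controls (median 36.5) and from 40.6 to 56.8 CPM in T + WSD animals (median 43.2). Only 1 treated animal lay above all controls, and the fold change of 1.31 (0.986 to 1.74) did not pass (edgeR adjusted p = 0.177).

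Of the 3 receptors only TIE1 was called. TIE1 ranged from 24.8 to 60.6 CPM in controls (median 46.3) and from 63.3 to 78.3 CPM in T + WSD animals (median 69.7). The groups did not overlap, the treated animals had a coefficient of variation of 7.63% against 33.8% in controls, and TIE1 rose 1.54-fold (1.18 to 2.02, edgeR adjusted p = 0.0266). TEK, the receptor with which TIE1 pairs, ranged from 76.5 to 167 CPM in controls (median 92.4) and from 87.9 to 159 CPM in T + WSD animals (median 104). The groups overlapped almost entirely (1.05-fold, 0.804 to 1.38, edgeR adjusted p = 0.828). Without C replicate 1 the log2 fold change of TEK was 0.28 ± 0.17 (SE, edgeR adjusted p = 0.318) in place of 0.08. KDR ranged from 84.0 to 272 CPM in controls (median 110) and from 88.6 to 134 CPM in T + WSD animals (median 118). Its fitted fold change of 0.793 (0.531 to 1.18, edgeR adjusted p = 0.435) rested on C replicate 1, and was −0.04 ± 0.25 on the log2 scale (SE) without that animal.

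ERG ranged from 18.2 to 45.7 CPM in controls (median 32.4) and from 37.1 to 55.4 CPM in T + WSD animals (median 43.3). The groups overlapped, with 2 treated animals above all controls. The change of 1.44-fold (1.07 to 1.93) passed neither the threshold on adjusted p (edgeR adjusted p = 0.0784) nor that on fold change.

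Without C replicate 1, 3 of the 6 calls were kept: PECAM1 (log2 fold change 0.80, edgeR adjusted p = 0.00813), VWF (0.84, 0.0129) and ESAM (0.74, 0.0191). The share of all tested genes called, higher or lower, fell as well, from 10% with all animals to 5.87%. The log2 fold changes of CDH5, TIE1 and CLDN5 became 0.61, 0.52 and 0.65, with edgeR adjusted p of 0.0623, 0.0522 and 0.106. PECAM1, VWF and ESAM also kept their calls without C replicate 3, when 7.41% of all tested genes were called. Without T + WSD replicate 8, or without T + WSD replicate 12, there were 4 calls, as CDH5 and CLDN5 lost theirs. In these 2 settings 7.29% and 9.32% of all tested genes were called. Within the library batch and outside it the direction of the 6 genes was the same, at smaller sample sizes and with no call: the median log2 fold change of the 10 genes was 0.44 in the 16 libraries outside the batch and 1.18 in the 8 inside it. Of all tested genes 0.505% were called outside the batch and none inside it. C replicate 1 and T + WSD replicate 8 both lie inside the batch, so the larger value there includes them.

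**Figure D2:**
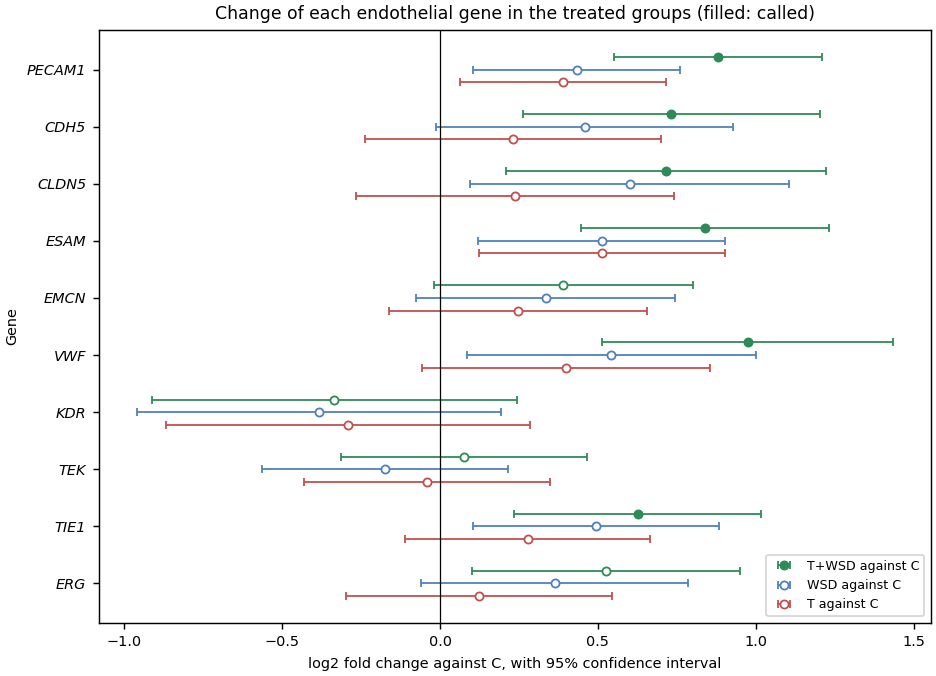
log2 fold change against C (horizontal axis) of the 10 endothelial genes in T + WSD, WSD and T animals, with 95% confidence intervals from the edgeR fit. Filled points are called changes: 6 genes in T + WSD animals and none in the other groups.

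The diet alone and testosterone alone gave smaller differences of mostly the same sign. In WSD animals edgeR called none of the 10 genes, as of all tested genes (0%). DESeq2 called 238 genes in all and none of the 10. At an unadjusted p under 0.05, 5 of the 10 were higher (PECAM1, TIE1, VWF, CLDN5 and ESAM), as were 9.59% of all tested genes, and the median log2 fold change of the 10 was 0.45. The lowest edgeR adjusted p among the 10 was 0.172. PECAM1 ranged from 273 to 528 CPM in WSD animals (median 377) and ESAM from 44.99 to 100 CPM (median 65.3). Both overlapped the controls below and the T + WSD animals above. TIE1 ranged from 53.7 to 78.9 CPM (median 64.0), with 4 of 6 animals above all controls. VWF ranged from 732 to 1004 CPM (median 828), and only 1 animal exceeded the highest control. CLDN5 ranged from 12.7 to 28.3 CPM (median 15.8), with the highest level of any animal in this group.

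In T animals edgeR again called none of the 10, nor any tested gene (0%), and DESeq2 called 7 genes in all and none of the 10. At an unadjusted p under 0.05, PECAM1 and ESAM were higher, 2 of 10 beside 3.54% of all tested genes, and the median log2 fold change of the 10 was 0.24. PECAM1 ranged from 316 to 419 CPM in T animals (median 361), with a log2 fold change of 0.39 ± 0.16 (SE, edgeR adjusted p = 0.547). ESAM ranged from 46.1 to 88.6 CPM (median 69.0), with 5 of 6 animals above all controls and a log2 fold change of 0.51 ± 0.19 (SE, edgeR adjusted p = 0.530). TIE1 (38.0 to 78.2 CPM) and VWF (592 to 958 CPM) overlapped the controls in 4 and 5 of 6 animals. The control animals are shared by the T, WSD and T + WSD comparisons, so these are not independent.

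CDH5, EMCN and ERG had no unadjusted edgeR p under 0.05 in either single treatment. Their group means, though not every single animal, lay between those of C and T + WSD. CDH5 ranged from 86.0 to 174 CPM in T and from 121 to 232 CPM in WSD animals, EMCN from 27.9 to 56.1 and from 32.3 to 52.9 CPM, and ERG from 23.1 to 47.4 and from 29.8 to 61.0 CPM. KDR was 67.2 to 167 CPM in T and 49.6 to 158 CPM in WSD animals, and TEK 70.3 to 122 and 65.9 to 119 CPM. No animal of either group exceeded the highest control for these 2 receptors, which was C replicate 1 for both. The next control, C replicate 4, had 116 CPM of TEK. T replicates 17 and 18 (122 and 121 CPM) and WSD replicate 21 (119 CPM) exceeded that level. None exceeded the 204 CPM of KDR in C replicate 4.

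The order of the group means was C, T, WSD, T + WSD from low to high for 7 of the 10 genes (PECAM1, CDH5, TIE1, VWF, CLDN5, EMCN and ERG). ESAM had the same ends, with T (67.9 ± 13.98 CPM) and WSD (67.8 ± 18.9 CPM) at the same level. With all animals, TEK and KDR were lowest in WSD (93.2 ± 20.4 and 111 ± 35.8 CPM). TEK was highest in T + WSD (111 ± 24.9 CPM) and KDR in C (145 ± 75.6 CPM). Without C replicate 1 the control mean of TEK was 92.8 CPM, level with WSD and no longer above it. That of KDR was then 120 CPM, level with T (119 CPM). Neighbouring groups in these orders overlapped in range for all 10 genes.

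Set against either single treatment, the combination gave no call. Against WSD, all 10 differences were above 0 (median log2 fold change 0.21) and 1 gene, PECAM1, had an unadjusted p under 0.05 (log2 fold change 0.45 ± 0.16 SE, edgeR adjusted p = 0.118). Of all tested genes 0.434% were called higher and 7.9% were higher at an unadjusted p under 0.05. Against T, 9 of 10 differences were above 0 (median 0.37). PECAM1, CDH5 and VWF had an unadjusted p under 0.05, beside 11.6% of all tested genes higher at that level and 2.34% called. All 6 T + WSD animals had more PECAM1 than all 6 T animals, as held for 2.99% of tested genes, with a log2 fold change of 0.49 ± 0.16 (SE, edgeR adjusted p = 0.0617). The changes of PECAM1, CDH5 and VWF were 1.40-fold, 1.41-fold and 1.49-fold, so all 3 also lay under the 1.5-fold needed for a call. The differences of CDH5 (0.50 ± 0.23) and VWF (0.57 ± 0.22) had edgeR adjusted p of 0.166 and 0.109, and VWF was called when C replicate 1 was left out of the shared fit (adjusted p = 0.0365). DESeq2 called none of the 10 in either comparison. Its lowest adjusted p among the 10 was 0.0724 against WSD and 0.0269 against T, where the threshold on fold change was not passed.

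The interaction term asks whether the effect of testosterone differed between the diets. None of the 10 passed an adjusted p under 0.1 and none had an unadjusted p under 0.05 with edgeR, beside 0.809% and 13.5% of all tested genes, and DESeq2 called none. The estimates ran from −0.19 for EMCN (95% confidence interval −0.77 to 0.39) to 0.34 for KDR (−0.48 to 1.16), and the lowest edgeR adjusted p was 0.707. With intervals of this width, a difference of up to 1.16 on the log2 scale could not be told from none.

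In T + WSD against C, 8 of the 10 genes had a log2 fold change of at least 0.39, and the receptors KDR and TEK had −0.33 and 0.08. Without C replicate 1 this gap closed for TEK (0.28), which then lay level with EMCN (0.27), and KDR had −0.04. The unevenness was also described by setting each gene's log2 CPM against the mean of the other 9 in the same library, a quantity that was not tested. Since each gene is set against the rest, a low value of some genes raises the values of others. On this scale KDR was 0.93 ± 0.92 in controls and 0.04 ± 0.24 in T + WSD animals (SD, n = 6 each), a difference of −0.90. TEK was 0.52 ± 0.70 and −0.04 ± 0.18, a difference of −0.56. C replicate 1 carried a large part of both, at 2.60 for KDR and 1.82 for TEK. Without it the differences were −0.56 for KDR and −0.30 for TEK, and EMCN was about as low as TEK (−0.27, against −0.15 with all animals). ERG differed by −0.02, and by −0.08 without C replicate 1. The differences of VWF, PECAM1 and ESAM were above 0, at 0.48, 0.34 and 0.30, and at 0.32, 0.31 and 0.24 without C replicate 1.

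**Figure D3:**
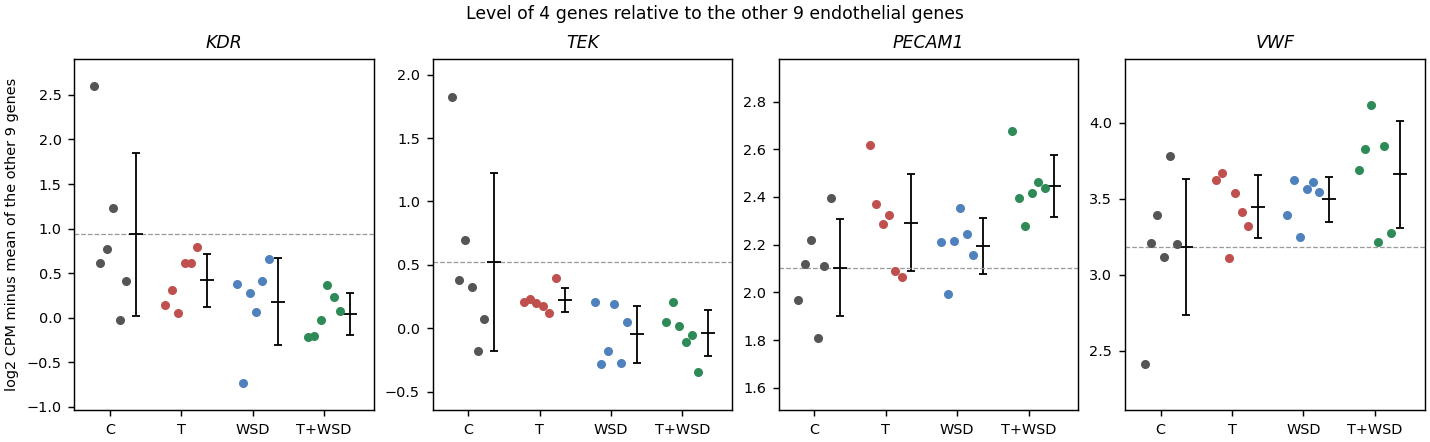
log2 CPM of KDR, TEK, PECAM1 and VWF minus the mean log2 CPM of the other 9 endothelial genes of the same animal (vertical axis), with 1 point per animal, mean ± SD beside the points and the control mean as a dashed line. The highest point for KDR (2.60) and TEK (1.82) and the lowest for VWF (2.41) are all C replicate 1.

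C replicate 1 had 272 CPM of KDR, beside 120 ± 48.4 CPM in the other controls (SD, n = 5), and 167 CPM of TEK, beside 92.8 ± 14.4 CPM. In contrast it had 241 CPM of VWF, beside 644 ± 164 CPM, and 53.4 CPM of CDH5, beside 128 ± 33.2 CPM. Which cells of that biopsy gave the KDR and TEK counts was not tested. Another control, C replicate 4, had the next highest KDR (204 CPM) of all animals.

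Covariation among animals treated alike was measured next. Deviations from the group mean (log2 CPM) were correlated over the 24 animals for the 45 pairs of genes, with a two-sided permutation test within groups and Benjamini-Hochberg adjustment over the pairs. Among the 8 genes other than KDR and TEK, Pearson's r had a median of 0.75 (0.38 to 0.91) and Spearman's rho a median of 0.73, and 27 of 28 pairs had an adjusted p under 0.05 by either measure. Without C replicate 1 the median r was 0.65 (0.32 to 0.89), and 27 of these pairs passed by r and 24 by rank. CDH5 and ERG were the closest pair (r = 0.91, rho = 0.91, p = 1e-05 and 2e-05, adjusted p = 0.00015 and 0.000225 by permutation, r = 0.88 without the 2 animals farthest from the median). EMCN and ESAM followed (r = 0.89, rho = 0.89, permutation p = 1e-05 for both, the smallest that 100000 resamples can give, adjusted p = 0.00015 and 0.000225, r = 0.91 without the 2 farthest). The pair that did not pass was VWF with CLDN5 (r = 0.38, rho = 0.37, p = 0.127 and 0.0783, adjusted p = 0.197 and 0.121 by permutation, r = 0.30 without the 2 farthest). Against the mean of the other 9 genes, ERG had the highest r (0.95) and KDR the lowest (0.16), given as a description.

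KDR and TEK were correlated with each other (r = 0.78, rho = 0.67, p = 6e-05 and 0.00111, adjusted p = 0.000245 and 0.00263 by permutation) and kept r = 0.67 without the 2 farthest animals. None of their 16 pairs with the other 8 genes passed, with r from −0.19 to 0.29. This separation depended on C replicate 1. Without that animal, TEK had r from 0.42 to 0.70 with the other 8, and 6 of 8 pairs passed by permutation (4 of 8 by rank). KDR had r from 0.25 to 0.68, and 2 of 8 passed (1 of 8 by rank). KDR with TEK then had r = 0.70. Outside the library batch (16 animals) the median r was 0.73 among the 8 genes and 0.39 between KDR or TEK and the 8. Inside it (8 animals) these were 0.93 and −0.20. C replicate 1 lies inside the batch, so its part and that of the batch in this contrast cannot be told apart here.

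**Figure D4:**
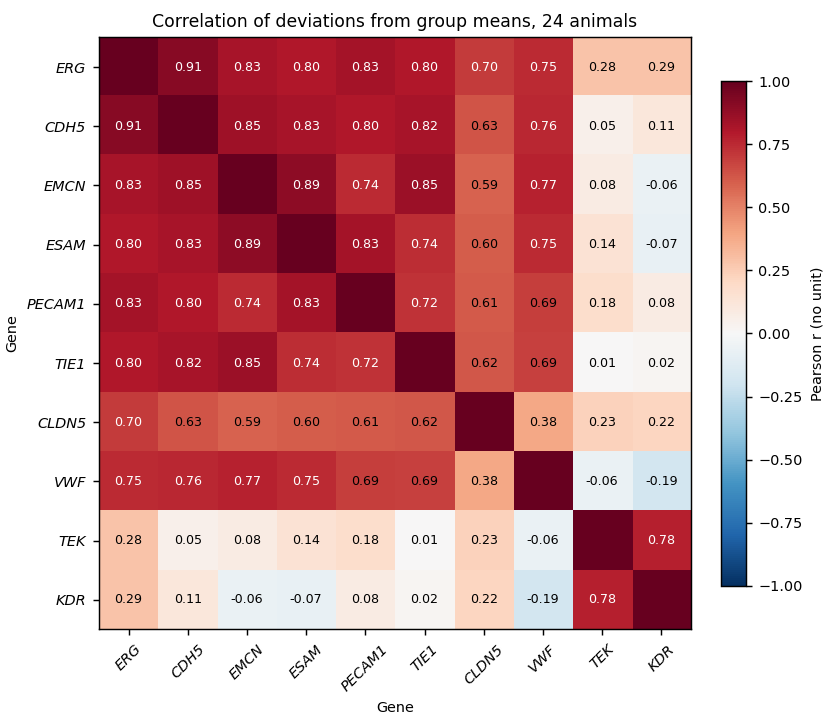
Pearson's r (colour and printed value, no unit) between each pair of the 10 endothelial genes over 24 animals, computed on deviations of log2 CPM from the group means. The 8 upper genes have r of 0.38 to 0.91 with each other, and TEK and KDR have r of at most 0.29 with them and 0.78 with each other. Without C replicate 1 the median r with the 8 was 0.55 for TEK and 0.40 for KDR.

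Of the genes whose deviations most resembled the mean of the 10, named by rank alone and with no test, ADGRL4 (an adhesion receptor of endothelium) came first with r = 0.92, followed by CPD (0.91), MYCT1 (0.91), SLC16A14 (0.90), MEF2C (0.90), F8 (0.89), FAT4 (0.89), MMRN2 (0.89), TBC1D30 (0.89) and ETS1 (0.88). Only tested genes with a symbol, outside the 10, were ranked, and the 99th percentile over these was 0.71. F8 encodes coagulation factor VIII, which circulates bound to VWF, MMRN2 is an extracellular matrix protein of endothelium, and ETS1 belongs to the same transcription factor family as ERG.

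Other endothelial genes were listed by name from general knowledge, with earlier results of these data known, so their counts are not an independent test. Over all tested genes 4.72% were called higher in T + WSD than in C. Of 18 tested pan-endothelial genes outside the 10, 12 were called higher in T + WSD than in C and none lower, with a median log2 fold change of 0.71. The log2 fold change was 0.93 ± 0.21 (SE) for MMRN2, 0.90 ± 0.20 for the VE-cadherin-associated phosphatase PTPRB, 0.91 ± 0.22 for the endothelial nitric oxide synthase NOS3 and 0.76 ± 0.18 for the sphingosine-1-phosphate receptor S1PR1 (edgeR adjusted p of 0.00650 to 0.00958). Of 10 arterial genes 6 were called higher and none lower (median 0.89). C replicate 1, included here, had the lowest sum of both lists among the 24 animals. The Notch receptor NOTCH4 rose from 23.5 ± 8.57 to 52.5 ± 9.08 CPM, the gap junction protein GJA5 from 21.4 ± 4.02 to 47.9 ± 9.73 CPM and SEMA3G from 43.1 ± 17.5 to 100 ± 17.9 CPM (SD, n = 6).

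Capillary genes gave 1 call of 6 tested, CD300LG (log2 fold change 1.08, edgeR adjusted p = 0.0162), although the list's median was 0.79. GPIHBP1, which anchors lipoprotein lipase on capillaries, had 0.81 ± 0.30 (SE, edgeR adjusted p = 0.0666). Venous genes were mixed, with PLVAP (1.17 ± 0.25) and NR2F2 (0.63 ± 0.19) called higher and VCAM1 (−0.75 ± 0.25), which mesothelial cells also make, called lower of 8 tested. Of 7 tested lymphatic genes none was called higher and 1 lower, PDPN (−1.15 ± 0.27), which mesothelial cells make as well. The summed lymphatic level was 201 to 271 CPM in T + WSD and 255 to 461 CPM in C animals. Which cells gave the counts of any gene on these lists, higher or lower, was not tested.

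Among 12 ligands and partners of the 10 proteins, NRP1, a co-receptor of KDR, rose from 330 ± 88.4 to 576 ± 84.7 CPM in T + WSD animals, with a log2 fold change of 0.80 ± 0.19 (SE, edgeR adjusted p = 0.00914). VEGFC (0.70 ± 0.19, adjusted p = 0.0171 by edgeR) and VEGFD (1.88 ± 0.54, 0.0207), growth factors of the VEGF family, also rose. PGF, a ligand of the related receptor FLT1, fell (−1.34 ± 0.29, 0.00614). The other 8 of this list were not called, and its median log2 fold change was 0.58. Of 12 junction proteins that work with VE-cadherin, claudin-5 and ESAM, JAM2 was called higher (0.69 ± 0.17) and the epithelial tight junction protein OCLN lower (−1.65 ± 0.36). The other 10 were not called, and the list's median was −0.04.

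Levels of other cell types' markers also differed between T + WSD and C animals, and their part in the endothelial result was not tested beyond the values given here. Of 10 tested mesothelial genes 8 were called lower, KRT18 from 106 ± 75.8 to 11.4 ± 8.95 CPM and MSLN from 527 ± 606 to 65.9 ± 49.9 CPM (SD, n = 6). Their summed level was 2726 to 38894 CPM in C and 235 to 3070 CPM in T + WSD animals. Of 10 adipocyte genes 2 were called higher (FABP4 and LEP), with sums of 3578 to 24502 and 21525 to 33049 CPM. With the mean mesothelial level as a covariate no gene of the 15207 was called, and the median log2 fold change of the 10 endothelial genes was 0.14 rather than 0.67. With the adipocyte mean as a covariate again no gene was called, and the median was 0.41.

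Smooth muscle and pericyte genes, the other cells of the vessel wall, gave 4 calls higher of 11 (RGS5, TAGLN, MCAM and NOTCH3, log2 fold changes 1.05 to 1.19), with sums of 1037 to 2106 CPM in C and 2005 to 2745 CPM in T + WSD animals. Of these 11 genes only 7 had a log2 fold change above 0 (median 0.54, lowest −1.06). None was called lower, and 2 were lower at an unadjusted edgeR p under 0.05. Platelets and megakaryocytes also hold VWF and PECAM1. Their 7 tested genes gave no call higher and 1 lower (TUBB1), and 5 of the 7 had a log2 fold change above 0 (median 0.35). The summed level of all 10 genes was 162 to 260 CPM in C and 147 to 196 CPM in T + WSD animals, and TUBB1 made up most of it (167 ± 34.1 and 108 ± 17.4 CPM). PF4 was 0.914 ± 0.560 CPM in C and 1.77 ± 1.09 CPM in T + WSD animals, PPBP was 5.42 ± 3.28 and 7.03 ± 5.05 CPM, and ITGA2B was 1.56 ± 0.168 and 1.07 ± 0.654 CPM (SD, n = 6 each). The part of platelets in the VWF and PECAM1 counts was not tested. Macrophage genes gave 2 calls higher of 10 (ITGAX and MSR1), with sums of 197 to 1245 and 550 to 1249 CPM. Of these 10 genes 7 had a log2 fold change above 0 (median 0.45, lowest −1.55). Fibroblast genes gave 1 call higher of 8 (DPT), although only 3 of the 8 had a log2 fold change above 0 (median −0.15). T and NK cell genes gave no call of 7, and erythroid genes 1 lower of 5 (AHSP).

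**Figure D5:**
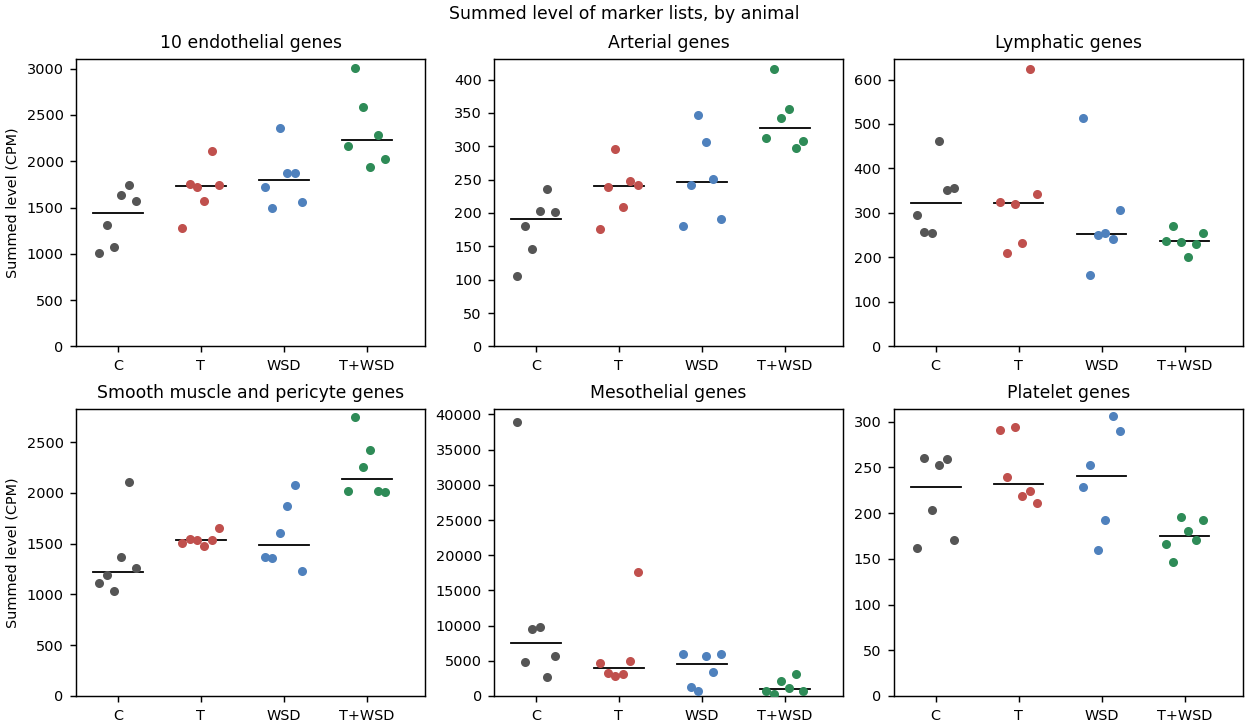
Summed level (CPM, vertical axis) of the 10 endothelial genes and of arterial, lymphatic, smooth muscle and pericyte, mesothelial, and platelet genes, with 1 point per animal and the group median as a line. In T + WSD animals the endothelial sum (1934 to 3004 CPM) lies above that of all controls (1013 to 1748 CPM), and the mesothelial sum reaches 38894 CPM in C replicate 1.

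Within groups, 80 relations between the 10 genes and 8 marker lists of non-endothelial cells were computed. ESAM was the only gene with an adjusted p under 0.05 by Pearson's r, with the mesothelial list (r = −0.67, rho = −0.57, p = 0.00058 and 0.00708, adjusted p = 0.0464 and 0.112 by permutation, r = −0.52 without the 2 farthest animals). By rank, 3 other relations passed. ESAM rose with the adipocyte list (r = 0.69, rho = 0.69, p = 0.00145 and 0.00043, adjusted p = 0.0580 and 0.0332 by permutation, r = 0.59 without the 2 farthest). CDH5 did so with the smooth muscle and pericyte list (r = 0.65, rho = 0.68, p = 0.00796 and 0.00083, adjusted p = 0.0814 and 0.0332 by permutation, r = 0.71 without the 2 farthest), as did ERG (r = 0.51, rho = 0.66, p = 0.0474 and 0.00126, adjusted p = 0.190 and 0.0336 by permutation, r = 0.65 without the 2 farthest). No relation with the platelet list passed (r from −0.24 to 0.09).

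Variation among like-treated animals lay near or above the middle of that of all tested genes, and only PECAM1 lay below it. The biological coefficient of variation from the edgeR fit ran from 0.20 for PECAM1 to 0.34 for KDR, the 44.1st and 70.7th percentiles of all tested genes. KDR had the widest control group, with a coefficient of variation of 52.0% when C replicate 1 was included, against 13.4% in T + WSD animals.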

How the data were processed

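Whole-transcriptome libraries were made by ribosomal RNA depletion. Per the labels and the study's methods, the authors used FastQC 0.11.5 for read quality, Trimmomatic 0.36 for trimming and STAR 2.5.2b for alignment to the rheMac8 genome. The authors deposited raw counts per Ensembl gene. The counting tool, annotation and strand setting are not given in the sources used here, so reads of genes that overlap others in a newer RefSeq assembly (PECAM1, CDH5, TIE1 and ERG) could be shared with them. No rheMac8 genome was used, and no coordinates or sequences are printed. The deposited methylation files and the authors' own comparisons in the supplementary tables (fold changes and p-values) were not used.

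Counts were filtered by expression (minimum count 10 in a group, minimum total 15), normalized by TMM and fitted for all 24 animals and 4 groups in edgeR 4.0.16 (R 4.3.3, quasi-likelihood F-test, two-sided, robust). Fold changes were called at adjusted p under 0.05 and over 1.5-fold, and the interaction at adjusted p under 0.1. CPM used the TMM-normalized library size, and log2 CPM a prior count of 2. Standard errors were derived from the F statistic, and intervals are 95%. Permutation tests used 100000 resamples within groups. DESeq2 1.42.0, other normalizations, filters, covariates and the omission of each animal were run as alternatives. The edgeR and permutation procedures were tested on simulated data. No 2 libraries were identical, and nothing in the labels pairs animals across groups.

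All 10 genes are named. Beside the rule below, ADIPOQ, PLIN1, PPBP and ITGA2B are named as defining markers of their cell types and were chosen after their values were seen. From each other list, at most 4 tested genes are named, those with the smallest p in T + WSD against C, and the 10 most similar genes by correlation with the mean of the 10. The genes and the lists were chosen with earlier results of these data known. The library batch, and the omission of C replicates 1 and 2 together, were defined after seeing the data.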

Additional observations from a re-analysis of the deposited data

Results flagged for a closer look

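Of 40 sets of 6 animals (10 genes in 4 groups), 3 held an animal whose gap to its nearest neighbour, as a share of the whole range of the group, exceeded Dixon's 95% critical value for 6 samples. Chance flags about 1 in 20 such groups. T + WSD replicate 8 was highest for ESAM (114 CPM, next 82.5 CPM, share 0.825) and for TEK (159 CPM, next 113 CPM, share 0.649). This library had the lowest total count of all, and ENSMMUG00000038258 took 54.7% of it, the largest share in any library. It was also the highest T + WSD library for PECAM1, CDH5, TIE1, VWF, EMCN and ERG. Without it CDH5 and CLDN5 lost their calls in T + WSD against C, and 7.29% of all tested genes were called, against 10% with it. WSD replicate 21 was highest for ERG (61.0 CPM, next 41.2 CPM, share 0.635). C replicate 1 did not exceed the value for KDR or TEK, since C replicate 4 lay between it and the rest. No interaction term of the 10 genes passed an adjusted p under 0.1.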

How the results depend on the processing

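The number of endothelial genes called in T + WSD against C (6) stayed within 1.5 times of that in 33 of 41 alternatives. It was 0 with the mesothelial or the adipocyte mean as a covariate, 0 outside the library batch, 0 inside it and 0 at a fold change over 2. It was 3 without C replicates 1 and 2 together, and 3 to 6 when each animal in turn was left out. Of all tested genes 5.52% were called at a fold change over 2 and 4.7% without C replicates 1 and 2 together, against 10% in the main fit. In T + WSD against T (0) it was 1, VWF, with only the groups compared and without C replicates 1 and 2 together, and 0 to 1 with each animal left out. The other 4 comparisons stayed at 0 in every alternative run.

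In T + WSD against C, 78 of all tested genes were called outside the batch and 0 with the mesothelial or the adipocyte covariate. With the mesothelial covariate, the log2 fold change changed sign for TEK (−0.10) and EMCN (−0.056) in T + WSD against C and for CDH5 in T + WSD against T (−0.037). With the adipocyte covariate it did so for KDR in T + WSD against C (0.036) and TEK in T against C (0.080). Outside the batch it did so for KDR (0.031) and TEK (0.071) in WSD against C, for KDR (0.14) and TEK (0.27) in T against C and for KDR in the interaction (−0.19). Inside the batch it did so for CLDN5 in T against C (−0.042). Without C replicates 1 and 2 together it did so for TEK in WSD against C (0.021) and T against C (0.15), for ERG in T against C (−0.020) and for EMCN in the interaction (0.0046). With each animal left out, TEK ran from −0.030 to 0.28 in T + WSD against C, from −0.25 to 0.013 in WSD against C and from −0.12 to 0.14 in T against C. The cause of these changes was not tested. ERG was called in 1 alternative, without C replicate 4. Pairs of genes correlated within groups numbered 28 of 45, 28 by rank, 32 without the 2 farthest animals and 36 without C replicate 1 (30 by rank). CLDN5, with the fewest counts, lost its call in 19 of 39 alternatives.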
